A study of Homo sapiens with 6 samples.

Results

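The adducins, spectrins, protein 4.1 family and ankyrins build the membrane skeleton, a protein mesh under the plasma membrane. Their levels were examined in AB 8/13 cells, a conditionally immortalized human podocyte line (cihPod). The members were the rows of the table whose gene symbol was ADD1, ADD2, ADD3, SPTAN1, SPTBN1, EPB41, EPB41L1, EPB41L2, ANK2 or ANK3, and all 10 were found among its 20745 genes. The cells were grown at 33 °C and then kept at 37 °C for 7 to 10 days to differentiate. There were 3 vehicle cultures and 3 cultures given 1 µM levamisole, both for 24 h, and all of them were of this line. Per the treatment protocol in the labels, neither group received serum during the 24 h, whereas in the study's methods the vehicle medium contained it.

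In the membrane skeleton, α and β spectrin form long flexible tetramers whose ends are held together by short actin filaments. Adducins cap the fast-growing ends of these filaments and recruit spectrin to them, and proteins of the 4.1 family strengthen the contact of spectrin with actin. Ankyrins tie β spectrin to membrane proteins such as ion transporters and adhesion molecules. In podocytes, the cells whose interlocking foot processes cover the glomerular capillaries, the form of the foot processes depends on actin and on the proteins that join it to the membrane.

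The table holds a base mean for every gene, which is the authors' mean of the normalized read count over the libraries of their fit. It gives no value for a single culture. The levels of the 10 genes are therefore means across libraries with no replicate error, and their response to levamisole was not tested. If only vehicle and levamisole libraries enter this mean, the base mean of a gene that differed between these groups lies between their levels. The members were chosen by a grouping that had the study's comparison of levamisole with vehicle in view, and the fold changes and p-values of that comparison were not used. The depth of each library is unknown. Over all genes the base mean had a median of 21.8, and it was under 5 for 35.7% of them. Mitochondrially encoded genes, 22 in number, accounted for 34.8% of the sum.

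The labelled cell type was checked against 12 podocyte markers, of which 11 had a row and 8 had a base mean of at least 5. The slit diaphragm gene NPHS1 was the marker without a row. WT1, the podocyte transcription factor, was at 6.21, and PODXL and SYNPO were at 15.3 and 22.8. The markers with high base means were VIM, ACTN4 and CD2AP, at 19062, 14320 and 929, and these are genes that many other cell types also use. The defining markers of podocytes were thus low or without a value, and the cells are named here by their line. Of the 21 markers of endothelial, mesangial, tubular, leukocyte and erythroid cells, 9 had a row, and the highest of them was PDGFRB at 4.14. Among 3 neuronal markers, SYN1 was at 31.3, RBFOX3 at 5.45 and SNAP25 at 3.12.

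SPTAN1 and ADD2, the members with the highest and the lowest base mean, are the genes between which the levels of the group extend. The 250 bases before their annotated starts are shown because both windows end at the start of the canonical transcript and both have more CpG than most windows, although the base means stand 40.4-fold apart. The sequences are from RefSeq on GRCh38.p14, run 5′ to 3′ along the strand of the gene, and have their CpG dinucleotides in capitals. The window of SPTAN1 is chr9:128552337-128552586 on the plus strand, and that of ADD2 is chr2:70768201-70768450 on the minus strand.
SPTAN1: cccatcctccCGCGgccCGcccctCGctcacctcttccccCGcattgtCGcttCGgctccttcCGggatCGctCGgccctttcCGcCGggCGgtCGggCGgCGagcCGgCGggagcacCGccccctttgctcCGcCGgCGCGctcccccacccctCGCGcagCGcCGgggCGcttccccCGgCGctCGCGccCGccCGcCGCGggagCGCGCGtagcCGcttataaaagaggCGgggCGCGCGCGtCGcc
ADD2: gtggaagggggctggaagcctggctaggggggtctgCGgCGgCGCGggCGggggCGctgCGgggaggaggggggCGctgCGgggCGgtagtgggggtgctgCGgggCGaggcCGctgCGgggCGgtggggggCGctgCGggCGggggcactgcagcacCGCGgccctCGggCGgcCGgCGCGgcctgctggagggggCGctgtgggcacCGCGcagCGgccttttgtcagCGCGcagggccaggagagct

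The SPTAN1 window has 46 CpG dinucleotides and the ADD2 window has 31, against a median of 11 over 35114 such windows of all genes. The 35114 windows were not restricted to protein-coding genes. ADD1, SPTBN1 and EPB41L2, whose RefSeq start is also that of the canonical transcript, have 29, 30 and 35. All 5 of these windows hold the motif GGGCGG on one or the other strand, as do 42.6% of all windows. Of the windows of all 10 members, 7 hold it. The windows of ADD3 and EPB41L1 have 2 CpG dinucleotides each, but their RefSeq starts lie 11611 and 63326 bases upstream of the canonical transcript. The RefSeq starts of ANK3 and ANK2 lie 343653 and 344031 bases upstream of it. Their windows have 14 and 11 CpG dinucleotides, and that of EPB41, whose RefSeq start lies 27469 bases upstream of the canonical one, has 17. The bases checked just after the RefSeq starts of EPB41L1, ANK3 and ANK2 were in no GENCODE transcript of the same gene. Which start these cells use was not measured. The 4 members with the highest base means had 29 to 46 CpG dinucleotides, all in windows at the canonical start. ADD3 and EPB41L1, which came next in base mean, had 2 each. Of the 4 lowest, ADD2, whose window is at the canonical start, had 31. The others of these, whose windows lie away from it, had 11 to 17. A relation between CpG number and level was not tested.

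In base mean all 10 members were above the median gene of the table, and 6 of them were above the median protein-coding gene, which had a base mean of 66.2. Per kilobase of exonic length 6 of the 10 were above the median gene, which was at 5.53. In base mean, SPTAN1, ADD1, SPTBN1, EPB41L2 and ADD3 formed an upper group from 513 to 1372. EPB41L1 followed at 133, and ANK3, ANK2, EPB41 and ADD2 lay between 33.9 and 60.5. The upper 5 genes held 94.1% of the summed base mean of the members. The members together made up 0.123% of the base means of all genes other than the mitochondrially encoded ones.

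**Figure D1:**
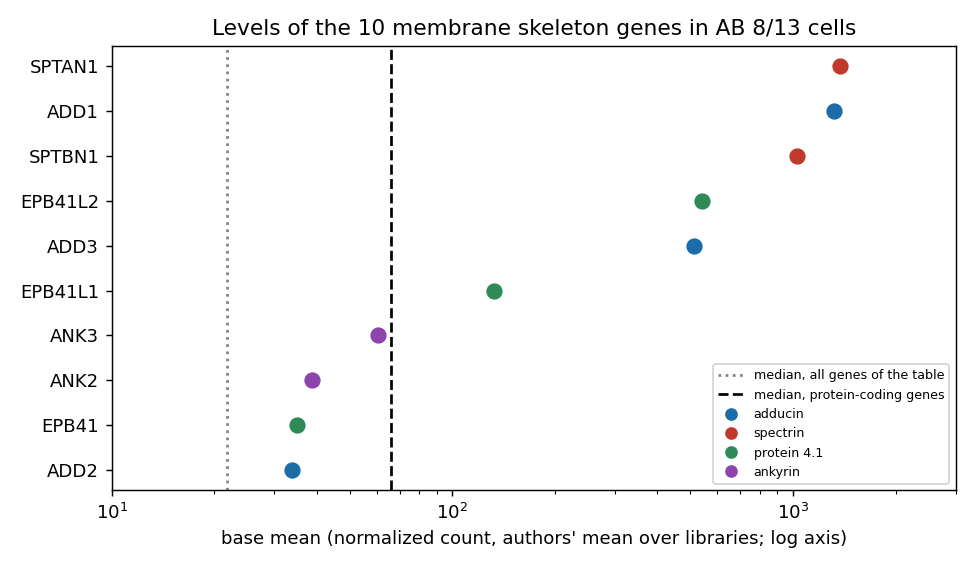
Base mean of each member (horizontal log axis, normalized count, authors' mean over libraries, no error available), coloured by gene family, with the medians of all genes and of protein-coding genes as vertical lines. The 5 genes from SPTAN1 to ADD3 lie at 513 or more, and ANK3, ANK2, EPB41 and ADD2 lie between the medians of 21.8 and 66.2.

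Adducins act as dimers and tetramers in which ADD1, the α subunit found in most tissues, pairs with ADD2 or ADD3. ADD1 (ENSG00000087274) lies on the plus strand of chromosome 4 of GRCh38 from 2843844 to 2930076. Its base mean was 1317, at place 540 of the 20745 genes. ADD3 (ENSG00000148700), the γ subunit, lies on the plus strand of chromosome 10 from 109996368 to 110135565 and had a base mean of 513. ADD2 (ENSG00000075340), the β subunit known from red cells and brain, lies on the minus strand of chromosome 2 from 70607618 to 70768225 and had a base mean of 33.9, at place 9297.

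Of the summed base mean of the adducins, ADD1 held 70.6%, ADD3 27.5% and ADD2 1.82%. The order was the same per kilobase of exonic length, where the values were 99.5 for ADD1, 78.5 for ADD3 and 2.68 for ADD2. Per kilobase of coding length the values were 549, 242 and 15.6. The γ subunit thus exceeded the β subunit 15.1-fold in base mean, while α exceeded γ 2.56-fold. The study's supplement lists ADD2 among the genes lowered by levamisole. Its base mean may therefore lie between unlike levels of the vehicle and levamisole cultures, which are not known from the base means.

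Spectrin is a dimer of an α and a β chain. SPTAN1 (ENSG00000197694) encodes αII spectrin, the α chain of cells other than red cells. It lies on the plus strand of chromosome 9 from 128552558 to 128633662 and had the highest base mean of the members, 1372, at place 505. SPTBN1 (ENSG00000115306) encodes βII spectrin, its usual partner, and lies on the plus strand of chromosome 2 from 54456317 to 54671446. Its base mean was 1030, at place 734.

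Other β spectrins with a value given here were far lower in base mean, with SPTBN4 at 8.23 and SPTB, the β chain of red cells, at 1.74. Per kilobase of exonic length SPTBN4 was at 0.70 and SPTB at 0.12, against 55.8 for SPTBN1. SPTBN5 had no row. SPTAN1 exceeded SPTBN1 1.33-fold in base mean. Per kilobase of coding length, SPTAN1 was at 185 and SPTBN1 at 145.

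Proteins of the 4.1 family share a membrane-binding FERM domain, and several of them bind spectrin and actin. EPB41L2 (ENSG00000079819), or 4.1G, lies on the minus strand of chromosome 6 from 130839347 to 131063322 and had a base mean of 542. EPB41L1 (ENSG00000088367), or 4.1N, lies on the plus strand of chromosome 20 from 36091504 to 36232799, with a base mean of 133. EPB41 (ENSG00000159023), the 4.1R protein of red cells, lies on the plus strand of chromosome 1 from 28887091 to 29120046, with a base mean of 35.1.

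The highest gene of this family was EPB41L3, or 4.1B, which is not one of the 10 members. Its base mean of 1194 was 51.4% of the sum over 7 genes of the family, against 23.3% for EPB41L2, 5.72% for EPB41L1 and 1.51% for EPB41. EPB41L3 was also the first of the family per kilobase of exonic length, at 97.9 against 52.5 for EPB41L2, and per kilobase of coding length, at 366 against 180. EPB41L5 and EPB41L4A, which lie between EPB41L2 and EPB41L1 on all 3 scales, had base means of 230 and 172. EPB41L4B was at a base mean of 18.3.

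Ankyrins were the family with the lowest summed base mean. ANK3 (ENSG00000151150), or ankyrin-G, lies on the minus strand of chromosome 10 from 60026298 to 60733490 and had a base mean of 60.5. ANK2 (ENSG00000145362), or ankyrin-B, lies on the plus strand of chromosome 4 from 112818032 to 113384221 and had a base mean of 38.6. ANK1, the red cell ankyrin and not a member, was at a base mean of 39.8. The 3 ankyrins together reached a base mean of 139, whereas the 3 adducins reached 1864.

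The order within the ankyrins differed between the base mean and the values per kilobase, which for counts of 3′ ends understate the longer genes ANK2 and ANK3. In base mean ANK3 came first with 43.5% of the family's sum, but per kilobase of exonic length ANK1 was at 3.62, ANK3 at 2.34 and ANK2 at 0.70. ANK1 also came first per kilobase of coding length, at 7.06 against 4.61 for ANK3 and 3.25 for ANK2.

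**Figure D2:**
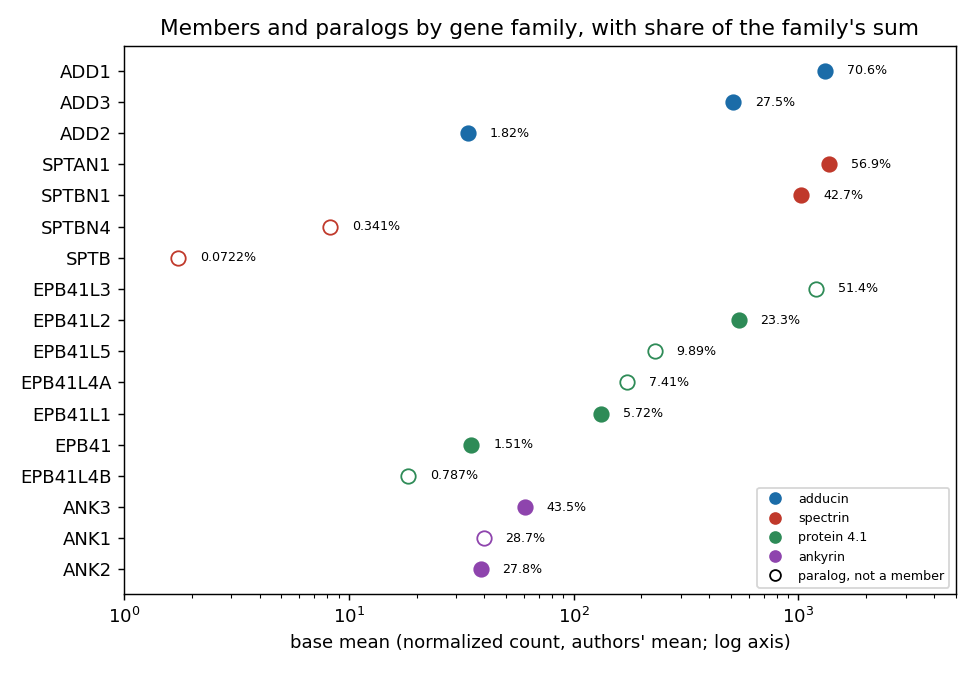
Base mean (horizontal log axis, normalized count, authors' mean) of the members (filled) and of the reported paralogs that are not members (open), by gene family, with each gene's percentage of the summed base mean of the genes shown for its family. ADD1 holds 70.6% of the adducins, SPTAN1 and SPTBN1 nearly all of the 4 spectrins shown, and EPB41L3, an open point at 1194, 51.4% of the protein 4.1 family.

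The CEL-seq primer starts the cDNA at the poly(A) tail, and most reads come from the 3′ ends of transcripts, so the count of a gene depends little on its length. For such counts a value per kilobase understates long genes. Both scales are given, since the share of reads from elsewhere in the transcripts is not known from the table. Division by length left the split between the upper 5 genes and the rest in place on both length scales, with EPB41L1 sixth on each. Within the upper group, ADD1 moved ahead of SPTAN1 on both length scales. Per kilobase of exonic length SPTAN1 was at 83.2 and SPTBN1 at 55.8, and ADD1 was at 99.5. ADD2, the last in base mean, was seventh on both length scales, ahead of ANK3, EPB41 and ANK2.

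Some neighbours in the order of base means were close. SPTAN1 exceeded ADD1 1.04-fold, EPB41L2 exceeded ADD3 1.05-fold, EPB41 exceeded ADD2 1.03-fold and ANK2 exceeded EPB41 1.10-fold. With no spread over cultures, it cannot be said whether these neighbours differ. The widest step was between ADD3 and EPB41L1, which were 3.87-fold apart.

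**Figure D3:**
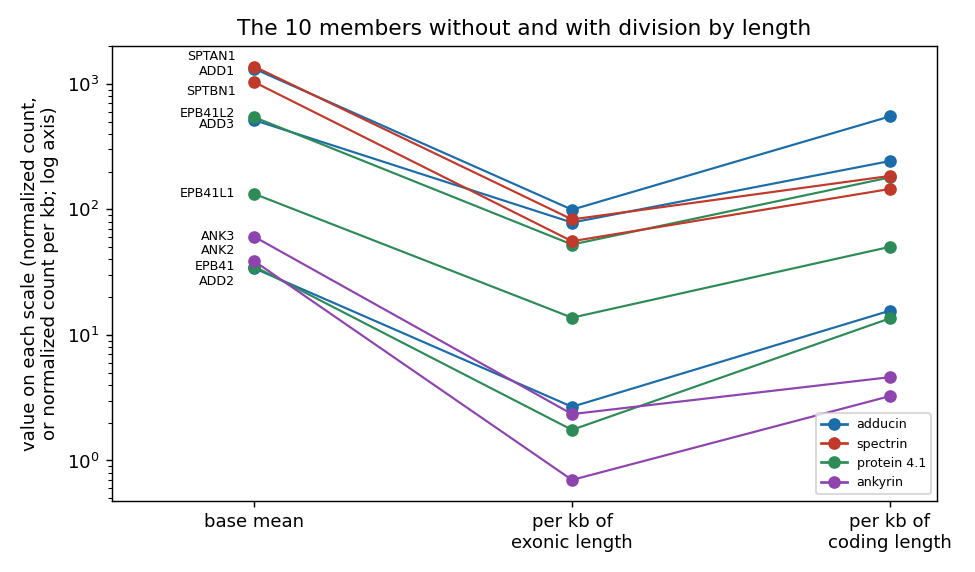
The 10 members as base mean (normalized count, authors' mean), per kilobase of exonic length and per kilobase of coding length, on a log axis, with a line for each gene coloured by family. The upper 5 genes stay above EPB41L1 on each scale, and ADD1 is highest on both length scales, at 99.5 and 549.

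The members differ in their gene models as well. The gene spans on GRCh38 run from 81.1 kb for SPTAN1 to 707 kb for ANK3, and the canonical transcripts have from 15 exons in ADD3 to 57 in SPTAN1. The proteins encoded by these transcripts have 706 residues for ADD3, 2477 for SPTAN1, 2364 for SPTBN1 and 4377 for ANK3. The annotation gives the members between 2 and 23 different ends of protein-coding transcripts. For all 10 members, 0% of the last 500 exonic bases of the canonical transcript were covered on the same strand by exons of another gene of the table. Overlap with genes that have no row, and overlap at the other annotated ends, was not checked.

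Genes that work with the membrane skeleton were described from lists of 41 genes beside the members, paralogs included. Of these, 36 had a row and 34 had a base mean of at least 5, as had 13336 of the 20745 genes of the table. Among 13 further skeleton genes, ACTB and ACTG1, the cytoplasmic actins, had base means of 35811 and 15623. TPM1, a tropomyosin that lies along actin filaments, was at 24709, and the other tropomyosins TPM2, TPM4 and TPM3 were at 2331, 2207 and 1203. TMOD3, the tropomodulin that caps the slow-growing filament end, was at 650 and TMOD1 at 5.42. DMTN, or dematin, which bundles actin in this mesh, was at 288.

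The calpains, proteases that cleave spectrin, had base means of 749 for CAPN2 and 132 for CAPN1. Their shared small subunit CAPNS1 was at 12828, and their inhibitor CAST, or calpastatin, was at 1085. Of 6 kinases that phosphorylate adducin, 5 had a row, with base means from 99.2 to 389, of which PRKCA was the highest. Among 10 membrane proteins known to bind ankyrins or 4.1 proteins, the highest base means were those of CD44 at 2272, L1CAM at 1400 and ATP1B1 at 638. Per kilobase of exonic length, ACTB was at 8130, CD44 at 227, L1CAM at 193 and CAPN2 at 87.2, beside 99.5 for ADD1, the highest member on this scale.

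**Figure D4:**
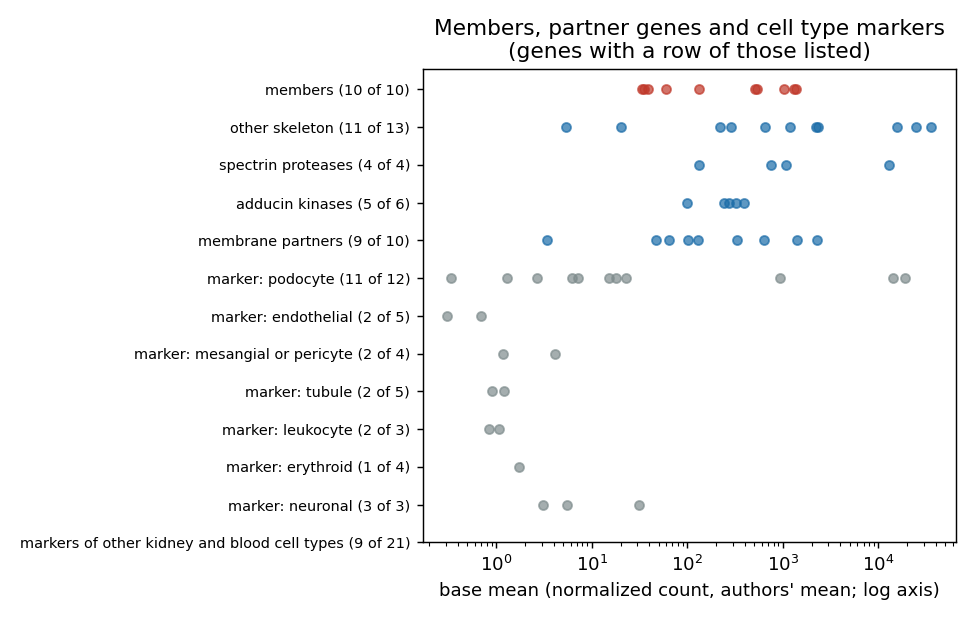
Base mean (horizontal log axis, normalized count, authors' mean) of every gene with a row in the members, in 4 lists of partner genes and in 7 lists of cell type markers, where each point is a gene and the numbers beside a name count genes with a row of those listed. The members lie from 33.9 to 1372, and the markers of endothelial, mesangial, tubular, leukocyte and erythroid cells lie at 4.14 or less.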

How the data were processed

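Bulk RNA sequencing by an adapted CEL-seq protocol was done on 3 vehicle-treated and 3 levamisole-treated cultures. Per the labels and the study's methods, the authors trimmed reads with Trim Galore 0.4.5, mapped them to GRCh38 with STAR 2.7.5a, counted them with HTSeq 0.11.0 and compared the groups with DESeq2 1.22.0. The authors deposited 1 table of this comparison. Its base mean, the deposited signal used here, is the authors' mean of counts divided by size factors. Which libraries enter that mean is not given in the sources used here. The other 5 columns hold the authors' log2 fold change, its standard error, the test statistic, the p-value and the adjusted p-value, and were not used. The table holds 0 columns of values per culture, so no comparison of the groups, no replicate error and no depth per library could be had.

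Percentiles, shares within families and values per kilobase were computed with Python 3.11.15, NumPy 2.4.6 and pandas 2.3.3, and plots were drawn with matplotlib 3.10.9. The percentile was tested on simulated data with known ranks. Positions and lengths come from GENCODE 44 on GRCh38, the authors' assembly with a later annotation, in which 20599 of the 20745 identifiers were found. Exonic length is the union of all exons of a gene, and coding length is that of the canonical transcript. RefSeq start windows were found for 10 of 10 members. Motifs were searched on both strands.

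The genes named are the members, their paralogs as far as they are reported, and the highest genes of each list of partners. TMOD1, TMOD3, CAPN1 and DMTN were named beside them after their values were seen. Results for some listed genes are not reported here. The members and lists were chosen with earlier results of these data known. Alternatives were other scales, base mean minimums and sets of reference genes. The count tests planned for values per culture, with DESeq2 and edgeR, were not run.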

Additional observations from a re-analysis of the deposited data

How the results depend on the processing

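The median percentile of the 10 members was 83.7 among all genes of the table, 74.7 among genes at a base mean of 5 or more and 77.0 among protein-coding genes, since these sets leave out low genes. With values per kilobase of exonic length, an alternative chosen after seeing the data, it was 75.1. Of the 10 members and the 41 listed skeleton and partner genes, 5 of which had no row, 44 had a base mean of at least 5. At least 1 was reached by 46 of them and at least 20 by 41. Of all 20745 genes of the table, 13336 were at 5 or more, 17001 at 1 or more and 10559 at 20 or more. Expressing the members as a share of the base means without mitochondrially encoded genes divides all by the same number and cannot change their order. Per kilobase of exonic length and of coding length 8 of 10 changed place. Leaving out family members under a base mean of 5 removed SPTB alone and moved the share of SPTBN1 by less than 1 percentage point, and in the other families there was no gene to leave out. No paired analysis was possible because the columns carry no values per culture. The planned tests of levamisole against vehicle with edgeR or DESeq2, without a low-count filter and without each replicate in turn also need such values and were not run.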
